A study of Mus musculus with 23 samples.

Results

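The genes examined were 10 members of the TGF-beta pathway: the ligand Tgfb1, its tether Nrros, the receptors Tgfbr1 and Tgfbr2, the transducers Smad2, Smad3 and Smad4, the inhibitory Smad7 and the co-repressors Ski and Skil. Open chromatin was read at each gene as ATAC-seq peaks, that is, sites where the Tn5 transposase can reach the DNA. A 501 bp region belonged to a member when its centre, a peak summit, lay in the gene body or within 20 kb of it on GRCm38. This gave 109 of the 49123 regions of the study: 21 at Tgfbr2, 20 at Smad3, 15 at Ski, 13 at Tgfb1, 10 at Nrros, 9 at Smad7, 8 at Skil, 5 at Tgfbr1, 5 at Smad4 and 3 at Smad2. Regions are numbered along the chromosome within each gene. A gene near a region is not shown to be controlled by it, and exons and introns could not be told apart with the gene table used.

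The libraries came from microglia of the striatum of male mice 8 to 10 weeks old. Offspring of dams with maternal immune activation received LPS (MIA_LPS, n = 5), control offspring received LPS (CON_LPS, n = 7), and both kinds of offspring received saline (MIA_SAL, n = 6, and CON_SAL, n = 5). LPS, a bacterial outer membrane component that activates TLR4, was injected intraperitoneally at 4500 endotoxin units per gram, and tissue was taken at 18 h. No source used here names the agent given to the dams. All cells were digested with papain at 37 °C and sorted as live CD11b+, CD45-low, P2RY12+ cells, so the gate itself asked for a microglial surface protein in every group. The labels do not say that each library is a separate animal, and p-values then measure the spread between these libraries, which may be technical.

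TGF-beta1 is secreted in a latent complex, and NRROS holds that complex on the surface of microglia until it is activated. The active ligand binds TGFBR2, which recruits and phosphorylates TGFBR1; TGFBR1 phosphorylates SMAD2 and SMAD3, and these enter the nucleus with SMAD4. SMAD7 blocks the active receptor, while SKI and SKIL (SnoN) hold SMAD complexes in a repressed state. In mice, microglia that lose this pathway lose much of their homeostatic gene expression.

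The 3 promoters below are shown because they carry the ligand, its tether and its binding receptor, and because a peak covered the annotated start of transcription of each in all 23 libraries. Each is 300 bases long, 250 before the start and 50 after it, from RefSeq on GRCm38.p6. Capitals mark the letters CAGAC, the core of the SMAD binding element, on either strand.
Tgfb1, chr7:25686752-25687051, plus strand: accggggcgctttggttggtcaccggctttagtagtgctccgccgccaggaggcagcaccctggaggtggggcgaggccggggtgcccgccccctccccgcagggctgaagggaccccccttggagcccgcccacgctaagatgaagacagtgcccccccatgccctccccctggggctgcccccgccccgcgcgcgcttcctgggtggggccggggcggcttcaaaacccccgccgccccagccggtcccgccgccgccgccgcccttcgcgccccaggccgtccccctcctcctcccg
Nrros, chr16:32165545-32165844, minus strand: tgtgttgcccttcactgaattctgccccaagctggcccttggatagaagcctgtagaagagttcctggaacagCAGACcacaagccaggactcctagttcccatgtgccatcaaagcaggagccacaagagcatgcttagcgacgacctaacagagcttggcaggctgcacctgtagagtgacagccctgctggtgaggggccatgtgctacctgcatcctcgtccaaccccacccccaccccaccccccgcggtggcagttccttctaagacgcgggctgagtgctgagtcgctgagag
Tgfbr2, chr9:116175314-116175613, minus strand: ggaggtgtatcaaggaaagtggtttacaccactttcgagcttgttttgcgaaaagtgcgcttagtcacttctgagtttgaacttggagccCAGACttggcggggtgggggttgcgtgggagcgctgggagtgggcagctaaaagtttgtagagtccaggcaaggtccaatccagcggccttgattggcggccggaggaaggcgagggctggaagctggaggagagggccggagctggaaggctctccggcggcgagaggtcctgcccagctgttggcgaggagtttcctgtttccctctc
The letters CAGAC or their reverse complement GTCTG occurred once in the Nrros and once in the Tgfbr2 promoter and not in that of Tgfb1. They were also present in 49.6% of 32851 mouse promoters of the same length, so their presence is common. GGCGC, another SMAD motif, was searched on both strands and occurred 2 times in the Tgfb1 promoter and in neither of the others, against 36.9% of all promoters with at least 1 match. The Tgfb1 promoter had 77% G and C, and the other promoters shown had 59%. Promoters of Smad2, Smad4, Smad7 and Skil were not analysed here. The start of the first Tgfbr1 promoter and that of Smad3 also lay under a peak in 23 of 23 libraries. A peak over the annotated start of Ski, or over the second start of Tgfbr1, was found in 0 of 23 libraries.

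Each deposited list was first shortened to its best 33949 peaks, the length of the shortest list, since deposited lists held between 33949 and 68312 peaks and the number of reads behind them is unknown. A peak missing here is therefore a peak not among the best of its list. Before shortening, the lists of MIA_LPS were the longest, with a median of 55011 peaks, against 43348 in CON_LPS, 43460 in MIA_SAL and 40910 in CON_SAL. Strength is given as the percentile rank of a region's peak in its list by −log10 p, 100 for the best peak and 0 for no peak, and differences in points of that rank. In the deposited lists, between 71 and 155 peaks per library had their summit at a member. The microglial marker genes Tmem119, Cx3cr1, Siglech and Olfml3 had a peak within 1 kb of a gene end in all 23 libraries; P2ry12 had one in 13, and Gpr34 in 0.

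All 10 members were open in every library at a gene end. Of 17 regions within 1 kb of an end of a member, 12 had a peak in 23 of 23 libraries, at least 1 for each gene. The strongest were the promoter of Tgfbr1 (98.5 ± 1.2, SD, n = 23) and the region 748 bp from the start of Ski (98.6 ± 1.0). Smad2 (93.9 ± 2.5), Skil (91.2 ± 3.6), Smad3 (91.0 ± 2.4) and Smad4 (87.5 ± 4.1) followed. Lower in the lists stood Smad7 (82.1 ± 5.8), Tgfbr2 (80.1 ± 3.9), Nrros (73.5 ± 6.0) and Tgfb1 (64.0 ± 7.6). Within 1 SD, Tgfbr1 and Ski stood apart from Smad2, and the other neighbours in this order overlapped. More than 1 kb from either gene end, inside or outside the genes, 26 of 92 regions had a peak in all libraries. In all, 38 of 109 member regions (34.9%) were open in every library, against 33.8% of all regions.

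**Figure D1:**
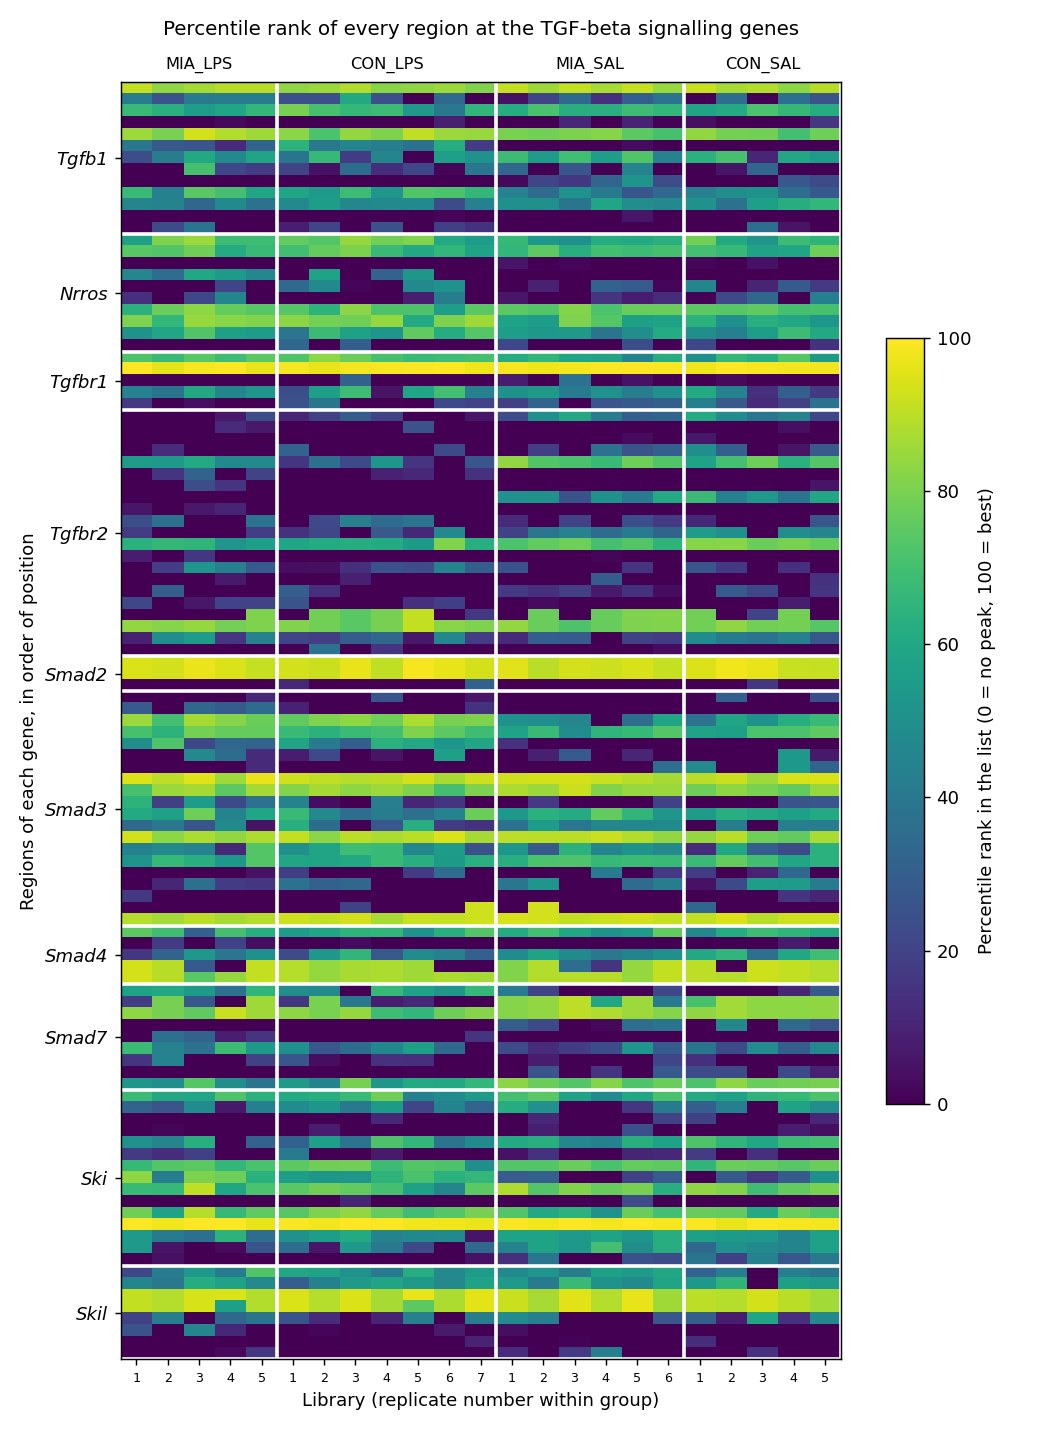
Percentile rank of the peak (colour, 0 for no peak to 100 for the best peak of a list) in each of the 109 regions (rows, by gene and position) and 23 libraries (columns, by group and replicate number). The gene-end regions run as bright bands through all 4 groups, while single rows at Tgfb1, Tgfbr2, Smad3, Smad7 and Ski change between the LPS libraries on the left and the saline libraries on the right.

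LPS against saline asks whether an acute inflammatory stimulus changed the accessibility of the pathway's own genes. Over both kinds of offspring, 15 member regions rose and 15 fell in rank with LPS, 30 of 109 (27.5%), against 20.5% of all 49123 regions (limma with Benjamini-Hochberg adjustment over all regions, adjusted p under 0.05). The 15 that rose are 13.8% of the members' regions, against 10.8% of all regions, and the 15 that fell are 13.8%, against 9.77%. The median difference over members was -0.82 points, against -0.60 over all regions. By presence, an exact test stratified by offspring, 4 member regions had a peak more often and 5 less often with LPS, 9 of 37 that could be tested (24.3%), against 23.7% of all testable regions. Over all testable regions, 15.3% were called more often open and 8.43% less often. All 9 were among the 30. The changes lay at 7 of the 10 genes (Tgfb1, Nrros, Tgfbr1, Tgfbr2, Smad3, Smad7 and Ski). Of the 30, 27 lay more than 1 kb from an end of the gene, as did 92 of all 109 member regions. Ranks of LPS and saline libraries were fully apart in 4 regions: Tgfb1 region 6, Smad3 regions 3 and 5, which were higher with LPS, and Tgfbr2 region 8, which was lower. These 4 are 3.67% of the members' regions, against 2.09% of all regions, of which 1.63% were higher and 0.456% lower.

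Some markers of other myeloid cells moved with LPS. Of 8 monocyte and neutrophil markers, 0 to 3 were open in MIA_LPS, 1 to 3 in CON_LPS, and 0 in every saline library. The summed percentile rank of that list was 0 to 149.1 in MIA_LPS and 3.6 to 88.2 in CON_LPS, against 0 in MIA_SAL and CON_SAL. S100a8 had a peak in 10 LPS libraries, Mmp8 in 9 and Camp in 5; Ccr2, Ly6c2, S100a9, Ly6g and Ngp were at 0 in all 23. These counts are from the shortened lists. In the whole deposited lists, CON_SAL_1 and CON_SAL_3 each had 1 open monocyte and neutrophil marker. Of 6 border macrophage markers in the shortened lists, F13a1 was open in 10 LPS and 0 saline libraries. Ms4a7 was open in 2 MIA_LPS libraries, and Mrc1 in 1 library each of MIA_LPS, CON_LPS and CON_SAL. Lyve1, Cd163 and Pf4 were at 0 throughout. The part of such cells in the results below was not tested. One LPS library, MIA_LPS_3, had 0 open markers of either kind, and its ranks are given beside some of the regions described below. Ranks of MIA_LPS listed 1 by 1 are in order of replicate number. Where only ranges or counts are given, the rank of MIA_LPS_3 is mostly not shown. Its deposited list was also the shortest of the 23, at 33949 peaks. Whether weak marker peaks were missed in it was not tested. In sorted bulk samples, fewer cells with an open region and less opening per cell cannot be told apart.

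The ligand gene changed downstream of its body. Tgfb1 region 6 (chr7:25705747-25706247) lies 920 bp past the end of the gene. Its ranks in MIA_LPS were 39.9, 27.9, 26.2, 11.9 and 32.2, and in CON_LPS they ran from 17.6 through a median of 42.6 to 64.8. In MIA_SAL 1 of 6 libraries had a peak, at rank 2.9, and in CON_SAL 0 of 5. All 12 LPS libraries thus had a peak and lay above all 11 saline libraries. The rank rose by 35.7 ± 5.0 points with LPS (SE; limma, adjusted p = 7.84e-06), and so did presence (stratified exact test, adjusted p = 0.000535). The library without open myeloid markers, MIA_LPS_3, was the one at 26.2. Without shortening, 12 of 12 LPS and 4 of 11 saline lists held the peak. Both calls were lost when peaks were ranked by their fold in place of −log10 p and in lists of 16974 peaks, and the presence call also among libraries from fewer than 20000 sorted cells.

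Farther downstream, 2 regions near Ccdc97, the next gene, went opposite ways. Region 9, 881 bp from Ccdc97, had a peak in 0 of 12 LPS libraries, against 8 of 11 saline libraries with a highest rank of 51.6 (adjusted p = 0.00435 by the stratified exact test). Region 10, inside Ccdc97, was open in all libraries, with ranks of 43.7, 66.9 and 74.6 (lowest, median, highest) under LPS and 26.7, 41.3 and 50.8 under saline. The libraries overlap only between 43.7 and 50.8, and the rank rose by 23.1 ± 4.5 points with LPS (adjusted p = 0.000438, limma). Region 5, in the gene body 2281 bp from the start, rose by 6.8 ± 2.0 points (adjusted p = 0.0189). The region at the start of Tgfb1 was not called.

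Nrros, the tether of latent TGF-beta1, gained accessibility at 2 sites and lost it at none. Region 4 (chr16:32158945-32159445) lies 6399 bp into the gene. The MIA_LPS ranks were 46.4, 36.0, 59.6, 54.5 and 46.4, and 3 of 7 CON_LPS libraries had a peak, at 57.6, 31.6 and 53. No saline library had one. Every MIA_LPS library therefore had this peak and 4 CON_LPS libraries did not. Over both offspring, 8 of 12 LPS libraries had the peak, against 0 of 11 saline libraries (adjusted p = 0.0044, stratified exact test). The rank rose by 34.4 ± 6.5 points (limma, adjusted p = 0.000322). The library MIA_LPS_3 had the highest of these ranks, 59.6. In the whole deposited lists the counts were 9 of 12 LPS and 2 of 11 saline libraries, where the presence call was lost. That call was also lost with a −log10 q of at least 5, in lists of 16974 peaks and with fewer than 20000 sorted cells; the rank call was lost in lists of 16974 peaks and with 20000 or more cells.

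Nrros region 8 (chr16:32170846-32171346), 5502 bp upstream of the start, was open in every library. Its ranks under LPS were 61.2, 80.9 and 85.9 (lowest, median, highest), against 50.2, 57.9 and 80.5 under saline. Most LPS libraries lay above most saline libraries, with some overlap. The rank rose by 18.2 ± 3.4 points over both offspring (limma, adjusted p = 0.000325). The rise was 15.4 ± 4.9 points in MIA (adjusted p = 0.0456) and 21.0 ± 4.7 points in CON (adjusted p = 0.00445). The call in MIA was lost without any of 14 single libraries, with adjusted p from 0.0101 to 0.101.

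Tgfbr1, the signalling receptor kinase, had 1 region that rose and 1 that fell among 5. Region 1, 19465 bp upstream of its first start, ranked 67.8, 71.7 and 83.2 (lowest, median, highest) under LPS, against 45.0, 62.0 and 73.5 under saline, and rose by 12.3 ± 2.9 points (limma, adjusted p = 0.00366). Region 5, inside the gene, fell by 15.8 ± 5.6 points (adjusted p = 0.0447), with a peak in 6 of 12 LPS and 10 of 11 saline libraries. In the whole deposited lists the peak was present in 11 of 12 LPS and 10 of 11 saline libraries, and the call was lost there. It was also lost without any of 15 single libraries (adjusted p from 0.0178 to 0.0851). The promoter, among the best peaks of every list, was not called.

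Tgfbr2, the receptor that binds the ligand, had the most regions and the most calls. By share of regions Smad7 stood higher, with 2 that rose and 4 that fell among 9. At Tgfbr2, 5 of 21 regions fell and 2 rose, while the promoter was not called. Region 8 (chr9:116122888-116123388) lies 52225 bp into the gene. It was at 0, with no peak, in all 5 MIA_LPS and all 7 CON_LPS libraries. The saline ranks were 25.8, 50.8 and 61.3 (lowest, median, highest) in MIA_SAL and 68.3, 43.8, 53.3, 38.8 and 59.4 in CON_SAL. Peaks from the middle of the saline lists were thus missing from every LPS list, also in MIA_LPS_3. The rank fell by 49.8 ± 4.7 points with LPS (limma, adjusted p = 2.35e-08), and presence was 0 of 12 LPS against 11 of 11 saline libraries (stratified exact test, adjusted p = 0.000174). In the whole deposited lists the peak was present in 1 of 5 MIA_LPS and 1 of 7 CON_LPS libraries, against 6 of 6 MIA_SAL and 5 of 5 CON_SAL libraries. The presence call held in all 31 alternatives and the rank call in 32 of 33, lost only in lists of 16974 peaks. Of the alternatives of each call, here and below, 23 left out 1 library in turn.

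Tgfbr2 region 5 (chr9:116101839-116102339), 73274 bp into the gene, had ranks of 54.7, 53.6, 61.3, 47.6 and 47.7 in MIA_LPS and 0, 22.1 and 52.4 (lowest, median, highest) in CON_LPS. The ranks were 67.3, 72.9 and 83.6 in MIA_SAL and 58.2, 70.1, 77.8, 63.8 and 73.2 in CON_SAL. Every CON_LPS library lay below every saline library. In MIA_LPS 1 library, MIA_LPS_3 at 61.3, lay above the lowest of CON_SAL. The rank fell by 33.0 ± 4.8 points over both offspring (limma, adjusted p = 1.46e-05), a call that held in all 33 alternatives. The fall was 21.3 ± 6.9 points in MIA (adjusted p = 0.0493) and 44.6 ± 6.7 points in CON (adjusted p = 6.33e-05). The call in MIA was lost without any of 17 single libraries, with adjusted p from 0.0213 to 0.108. The difference between these falls was 23.3 ± 9.6 points (adjusted p = 0.971), so a smaller fall in MIA was not established.

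Tgfbr2 had 3 more regions that fell. Region 1, 3521 bp past the far end of the gene, had ranks of 0, 6.4 and 29.3 (lowest, median, highest) under LPS and 21.8, 42.2 and 61.1 under saline, and fell by 32.3 ± 5.9 points (limma, adjusted p = 0.000224). Region 12, 29938 bp into the gene and open in all libraries, had ranks of 52.1, 62.0 and 81.0 under LPS and 65.0, 76.4 and 82.1 under saline, and fell by 13.8 ± 2.7 points (adjusted p = 0.000539). In both, the ranges meet but the medians stand apart. Region 11, 35633 bp into the gene, fell by 25.3 ± 6.8 points (adjusted p = 0.00857). The regions that rose were weak. Region 6 had a peak in 6 of 12 LPS and 0 of 11 saline libraries (rise of 9.3 ± 3.1 points, adjusted p = 0.0337). Region 17 had one in 7 of 12 LPS and 2 of 11 saline libraries (9.9 ± 3.4 points, adjusted p = 0.0371). Region 6 lost its call without any of 5 single libraries (adjusted p from 0.0104 to 0.0649) and region 17 without any of 12 (0.014 to 0.0708). At the promoter, region 19, the ranks were 83.6, 81.8, 84.2, 79.2 and 80.6 in MIA_LPS, and the difference over both offspring was 2.8 ± 1.7 points (adjusted p = 0.264).

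**Figure D2:**
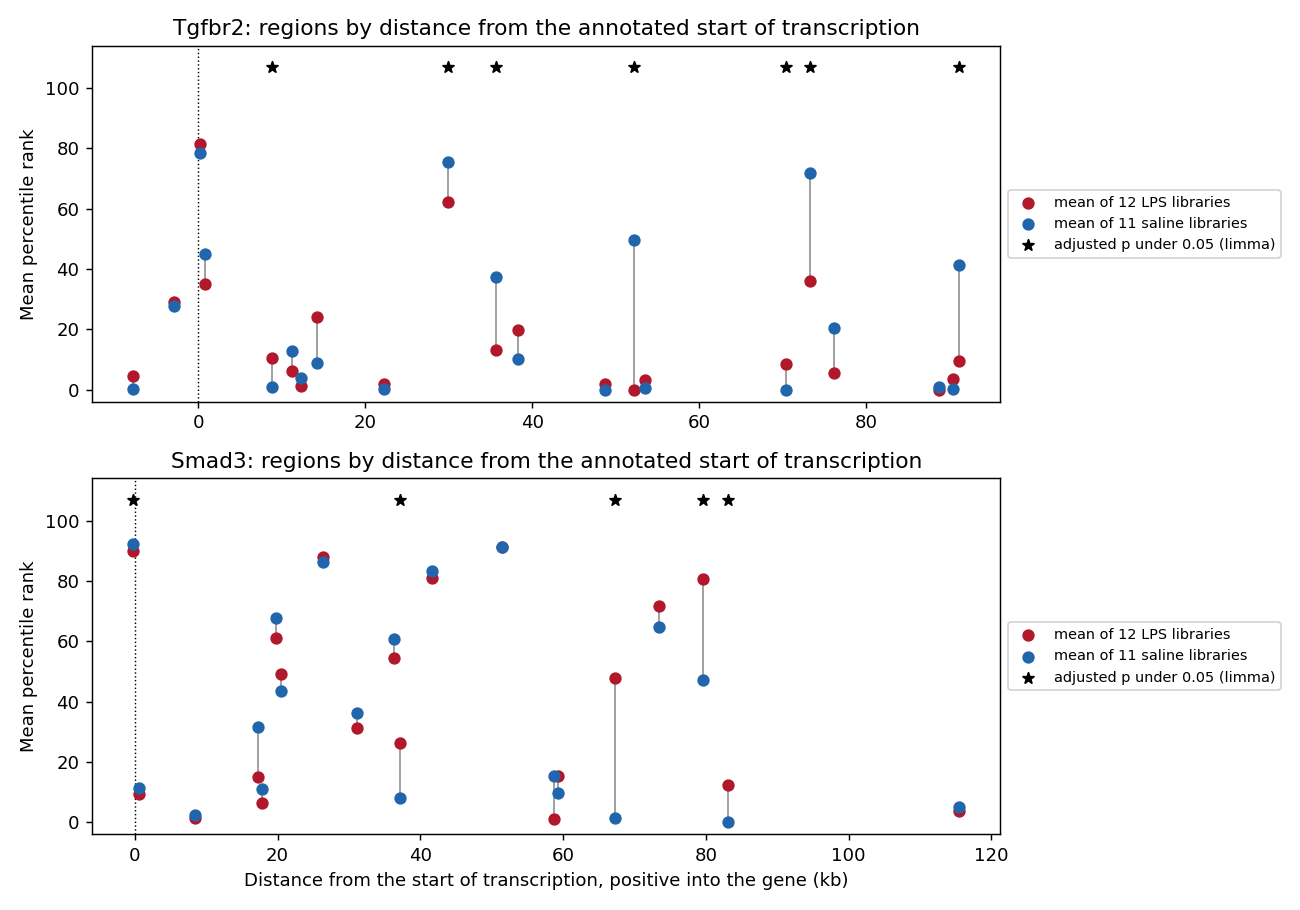
Mean percentile rank (y axis) of every region of Tgfbr2 (top) and Smad3 (bottom) in the 12 LPS libraries (red) and the 11 saline libraries (blue), by distance from the annotated start of transcription in kb (x axis, positive into the gene). Stars mark an adjusted p under 0.05 in limma. At Tgfbr2 the blue points stand above the red in 5 of 7 starred regions, and at Smad3 the red stand above the blue in 4 of 5, with the promoters near the top of the scale in both.

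SMAD2 and SMAD3 carry the signal from the receptors. Smad3 had 4 regions that rose and 1 that fell among 20. Region 5 (chr9:63690493-63690993), 67251 bp into the gene, had ranks of 49.3, 72.6, 21.7, 32.9 and 32 in MIA_LPS and 29.7, 58.4 and 64.0 (lowest, median, highest) in CON_LPS. In MIA_SAL 1 of 6 libraries had a peak, at 14.2, and in CON_SAL 0 of 5. The 12 LPS libraries all lay above the 11 saline libraries. The rank rose by 45.7 ± 5.7 points (limma, adjusted p = 1.83e-06), and presence rose as well (stratified exact test, adjusted p = 0.000535). The library MIA_LPS_3 was at 21.7, the lowest of the 12. The rank call held in 32 of 33 alternatives. In the whole deposited lists 12 of 12 LPS and 6 of 11 saline libraries had the peak, and the presence call was lost there and with fewer than 20000 sorted cells.

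Smad3 region 3 (chr9:63678102-63678602), 79642 bp into the gene, was open in 22 libraries. Its ranks were 70.0, 80.8 and 87.8 under LPS, against 0, 51.5 and 67.5 under saline, with no overlap. The rank rose by 32.5 ± 5.0 points (limma, adjusted p = 2.95e-05), a call that held in all 33 alternatives. Region 2, 83156 bp into the gene, had ranks of 28.6, 0, 33.1, 29.1 and 35.1 in MIA_LPS. In CON_LPS 2 of 7 libraries had a peak there, at 9.1 and 14.7. In MIA_SAL 1 of 6 libraries had one, at 0.1, and in CON_SAL 0 of 5. Most of the region 2 peaks were thus in MIA_LPS. With LPS its rank rose by 14.3 ± 3.3 points over both offspring (adjusted p = 0.00229, limma). Region 10 rose by 20.1 ± 6.8 points (adjusted p = 0.0366), a call lost without any of 11 single libraries (0.0211 to 0.0776).

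The Smad3 promoter, region 20, had ranks of 86.3, 90.4 and 93.5 (lowest, median, highest) under LPS and 89.1, 92.4 and 94.9 under saline. It fell by 2.5 ± 0.9 points (limma, adjusted p = 0.0489). This call was lost without any of 17 single libraries (0.0256 to 0.102), and when peaks were ranked by fold the difference was 1.0 in the other direction (adjusted p = 0.827). In CON alone, region 7 fell by 26.7 ± 7.8 points (adjusted p = 0.0274), with a peak in 0 of 7 CON_LPS and 3 of 5 CON_SAL libraries. Without CON_SAL replicate 1, 4 or 5, its adjusted p reached 0.104.

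Smad2, the other receptor SMAD, and Smad4, which both share, had no call. At Smad2, the ranks of the peak at the gene end were 94.3, 93.3, 97.0, 94.2 and 91.2 in MIA_LPS and 94.8, 98.0, 96.2, 91.5 and 91.4 in CON_SAL. The difference over both offspring was 0.6 ± 1.1 points (limma, adjusted p = 0.719), small beside the spread of 2.1 to 2.9 within groups. Its regions 1 and 2 were the same peak in 23 libraries. The Smad4 region with the smallest p, region 3 inside the gene, differed by -13.2 ± 5.7 points (adjusted p = 0.106). Skil, a co-repressor that TGF-beta itself induces in many cells, had no call either: its region with the smallest p, region 6, differed by 8.5 ± 3.6 points (adjusted p = 0.102).

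Smad7, which feeds back on the receptors, had 2 regions that rose and 4 that fell among 9. Region 1 (chr18:75363176-75363676), 3939 bp outside the gene, had ranks of 58.0, 60.0, 54.5, 37.7 and 65.6 in MIA_LPS and 0, 52.3 and 66.9 (lowest, median, highest) in CON_LPS. It had 0, 10.3 and 40.8 in MIA_SAL and 0, 0, 0, 10.2 and 27.9 in CON_SAL. All LPS libraries except 1 were above the saline medians, with ranges that overlap, and MIA_LPS_3 was at 54.5. With LPS it rose by 41.3 ± 7.4 points (limma, adjusted p = 0.000192). Region 9 (chr18:75414108-75414608), 18423 bp beyond the gene and nearest to Ctif, ranked 38.6, 53.8 and 79.3 under LPS, against 72.1, 77.3 and 82.9 under saline, and fell by 21.3 ± 3.7 points (adjusted p = 0.000131).

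Next to the strong Smad7 gene-end peak, region 2 had ranks of 0, 17.2 and 85.7 (lowest, median, highest) under LPS and 41.5, 83.1 and 90.2 under saline, and fell by 45.4 ± 9.9 points (limma, adjusted p = 0.00162). In 3 LPS and 8 saline libraries it was covered by the same peak as region 3, so its value there is that of the larger peak. The median width of that peak was 774 bp in MIA_LPS and 817 bp in CON_LPS, against 1395.5 bp in MIA_SAL and 1417 bp in CON_SAL. Region 3 itself, at the gene end, was open in all libraries and was not called. Inside the gene, region 4 had a peak in 0 of 12 LPS and 8 of 11 saline libraries (stratified exact test, adjusted p = 0.00807). Region 5 had one in 4 of 5 MIA_LPS, 1 of 7 CON_LPS and 0 of 11 saline libraries (adjusted p = 0.0413). Region 8, past the other end, had one in 1 of 12 LPS and 7 of 11 saline libraries (adjusted p = 0.0364). When lists were not shortened, region 8 had a peak in 7 of 12 LPS and 7 of 11 saline libraries, and its presence and rank calls were lost. The presence call of region 5 was lost without any of 11 single libraries (0.02 to 0.0886) and that of region 8 without any of 7 (0.013 to 0.0789). The rank call of region 5 was lost without MIA_LPS replicate 2 or 3, with an adjusted p of up to 0.052.

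Ski, a co-repressor of SMAD complexes, had 1 region that rose and 3 that fell among 15. Region 8 (chr4:155197643-155198143), 24642 bp into the gene, had ranks of 83.2, 42.5, 80.3, 78.1 and 64.0 in MIA_LPS and 52.1, 64.0 and 71.1 (lowest, median, highest) in CON_LPS. Saline ranks were 0, 24.2 and 30.7 in MIA_SAL and 0, 28.5, 15.8, 28.6 and 50.3 in CON_SAL. One MIA_LPS library, at 42.5, lay below the highest saline library; the other 11 LPS libraries lay above all of them. Over both offspring it rose by 44.0 ± 6.2 points (limma, adjusted p = 1.03e-05), a call that held in all 33 alternatives. MIA_LPS_3, with no open marker of other myeloid cells, was at 80.3.

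Upstream of Ski, 2 regions toward Faap20 fell. Region 15 (chr4:155237002-155237502) had a peak in 2 of 12 LPS and 9 of 11 saline libraries (stratified exact test, adjusted p = 0.0216). Region 14 had ranks of 0, 23.9 and 54.0 under LPS and 33.4, 50.0 and 70.7 under saline, and fell by 29.1 ± 7.1 points (limma, adjusted p = 0.00402). Region 5, inside the gene, fell by 17.5 ± 6.1 points (adjusted p = 0.0428), lost without any of 14 single libraries (0.0149 to 0.0838). The strongest Ski region, at 98.6 on average, was not called.

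**Figure D3:**
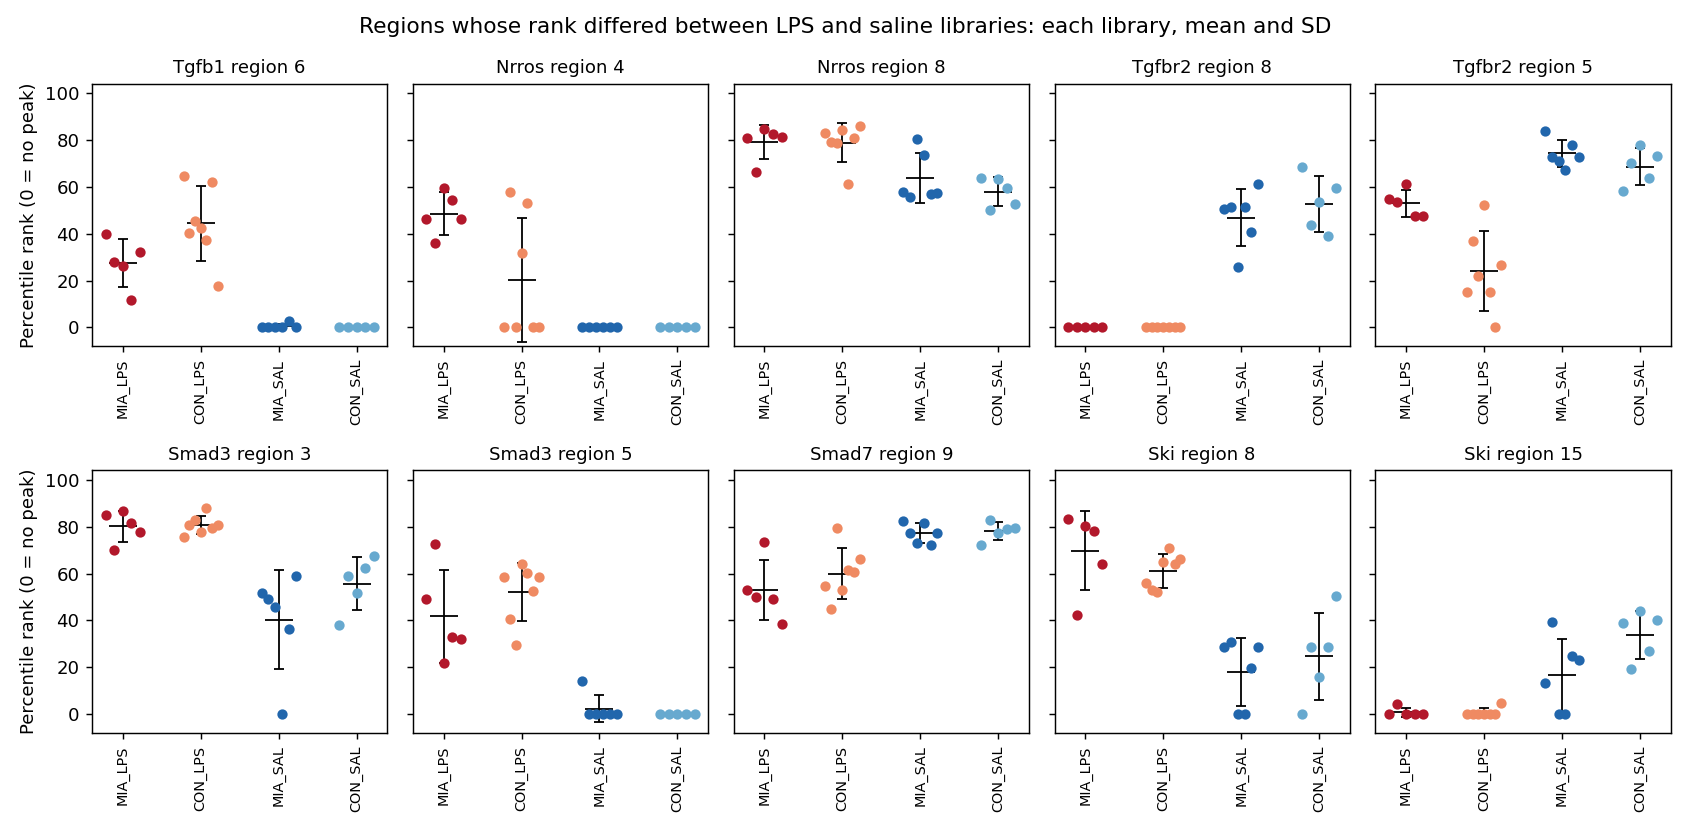
Percentile rank (y axis, 0 for no peak) of each library in 10 regions that differed between LPS and saline, by group (x axis, MIA_LPS, CON_LPS, MIA_SAL, CON_SAL); lines and bars are the mean and SD of a group. Tgfbr2 region 8 is at 0 in all 12 LPS libraries, while Tgfb1 region 6 and Smad3 region 5 are above 0 in all 12.

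The number of calls depended on how the lists were made. It was 9 of the members' regions in lists of 16974 peaks, 18 when peaks were ranked by fold, and 13 among libraries from fewer than 20000 sorted cells, against 30 here. Without any 1 library it ran from 25 to 31, and 23 of the 30 regions held their call in every such fit. In the whole deposited lists 23 of the 30 rank calls and 3 of the 9 presence calls were kept, the 3 being Tgfb1 regions 6 and 9 and Tgfbr2 region 8. The second number of the ID label was shared by 10 pairs of libraries, and its meaning is not given. With it as a random block, 28 of the 30 rank calls were kept, and those of Smad3 region 20 and Ski region 5 were lost.

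Taken separately, LPS changed 18 member regions in MIA offspring, 16.5% of them, against 10.0% of all regions (limma). The 11 that rose compare with 6.24% of all regions and the 7 that fell with 3.77%. In CON offspring it changed 16 (14.7%), against 10.0% of all regions. The 7 that rose compare with 5.59% of all regions and the 9 that fell with 4.44%. These comparisons share no library, but both come from the same limma fit with a shared estimate of the spread. Their calls are therefore not independent. Called in both were 11 regions, 61.1% of those in MIA and 68.8% of those in CON, against 55.0% and 54.9% for all regions. By Fisher's exact test on presence, 3 of 17 testable member regions were called in MIA, against 15.5% of all testable regions, and 3 of 9 in CON, against 12.5%. Tgfbr2 region 8 was called in both (adjusted p = 0.014 in MIA and 0.0101 in CON), Tgfb1 region 9 and Nrros region 4 in MIA, and Tgfb1 region 6 and Smad3 region 5 in CON. A region called in one kind of offspring and not in the other is not shown to differ between them.

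**Figure D4:**
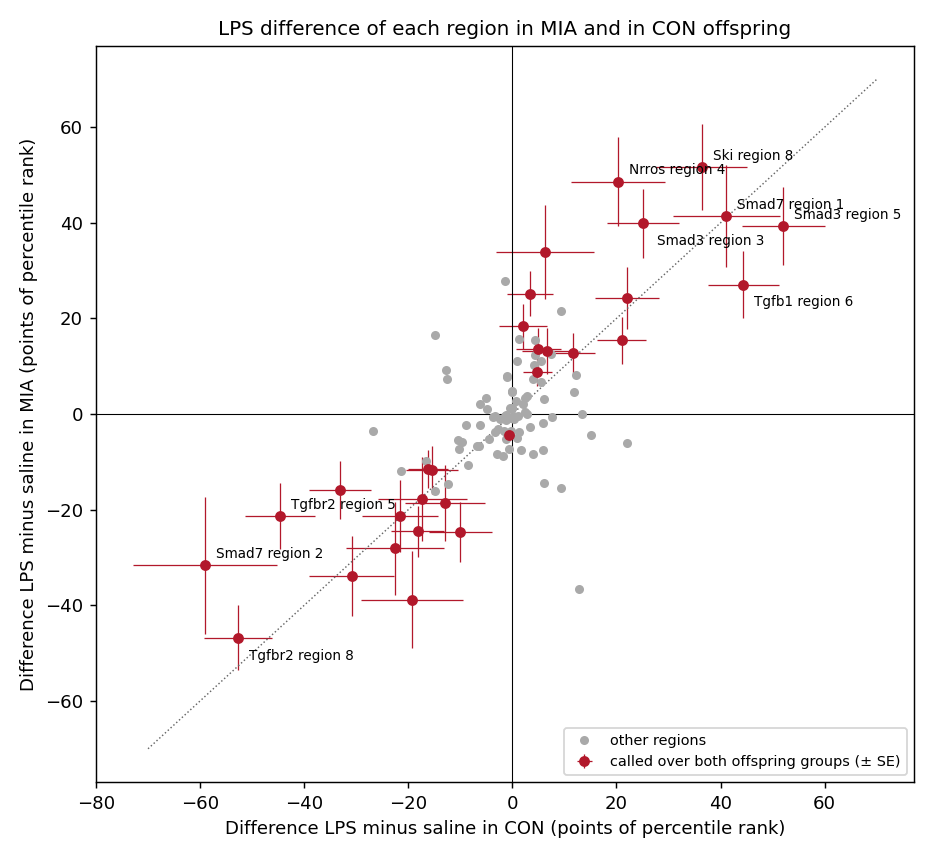
Difference in percentile rank, LPS minus saline, of each of the 109 regions in MIA offspring (y axis) and in CON offspring (x axis), in points. Red points with SE bars are the 30 regions called over both offspring, grey points the others; the dotted line marks equal differences. Tgfbr2 region 8 lies near that line at the lower left, and Nrros region 4 lies above it with 48.6 points in MIA and 20.3 points in CON.

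The test of the difference between these responses asks whether prenatal immune activation altered the reaction of the pathway's genes. Over the 109 regions, 0 were called by limma (smallest adjusted p = 0.971), and 0 of all 49123 regions were. At an unadjusted p under 0.05 there were 11 member regions (10.1%), against 4.51% of all regions. The median difference of the responses was 1.00 point over members, against 0.48 over all regions. Smad3 region 2 and Tgfbr2 region 5 had differences of 21.8 ± 6.5 and 23.3 ± 9.6 points, MIA minus CON.

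MIA compared with CON offspring gave no member call by either test. After LPS, limma called 0 of 109 member regions, against 12 of all regions (0.0244%), and 13 member regions (11.9%) had an unadjusted p under 0.05, against 5.62% of all regions. The smallest adjusted p belonged to Smad3 region 2, higher by 21.8 ± 4.5 points in MIA_LPS than in CON_LPS (adjusted p = 0.123). Tgfbr2 region 5 was higher in MIA_LPS by 28.9 ± 6.7 points (adjusted p = 0.172). Each was called in 2 other settings. Without MIA_LPS replicate 2, the MIA_LPS library with no peak there, Smad3 region 2 differed by 28.1 ± 3.4 points (adjusted p = 0.000486). Without CON_LPS replicate 4, Tgfbr2 region 5 differed by 33.7 ± 5.9 points (adjusted p = 0.0224). Among libraries from fewer than 20000 sorted cells, the differences were 12.9 ± 7.2 points at Smad3 region 2 and 22.9 ± 8.5 at Tgfbr2 region 5. Neither was called there or with all deposited peaks. After saline, 0 member regions were called and 7 had an unadjusted p under 0.05 (6.42%, against 5.22% of all regions). Over both treatments, 0 were called and 6 had an unadjusted p under 0.05 (5.5%, against 5.07%). By the exact tests on presence, 0 member regions were called in these 3 comparisons, and 0 of the testable ones had an unadjusted p under 0.05. Tgfbr2 region 9, too rarely open to be testable, had an unadjusted p of 0.0455 after LPS and over both treatments.

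Other genes of the pathway held 376 regions at 53 of 54 genes, chosen by role. With LPS, 52 of these rose (13.8%) and 35 fell (9.31%), against 10.8% and 9.77% of all regions (limma). Genes that bind or activate the latent ligand had 13 of 59 regions that rose and 3 that fell. Among these, Ltbp1, a binding protein of latent TGF-beta, had a region inside the gene with a peak in 12 of 12 LPS and 0 of 11 saline libraries (adjusted p = 0.000174, stratified exact test). A region 14055 bp from Furin, a protease that processes the TGF-beta precursor, showed the same counts. Other receptors had 6 of 61 regions that rose and 8 that fell. One, 9894 bp from Acvrl1 and 18842 bp from the activin receptor gene Acvr1b, was present in 12 of 12 LPS and 0 of 11 saline libraries.

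Among SMAD co-factors, 11 of 82 regions rose and 6 fell. Regions inside Tgif1, a repressor of SMAD targets, and inside Zeb2, a SMAD-interacting repressor, had peaks in 12 of 12 LPS and 0 of 11 saline libraries (adjusted p = 0.000174 for each, stratified exact test). Regulators of receptors and SMADs had 16 of 113 regions that rose and 12 that fell, the non-SMAD branch 5 of 35 and 3, and the other SMADs 1 of 22 and 3. The other ligands, Tgfb2 and Tgfb3, had 4 regions, of which 0 rose and 0 fell; by the exact test on presence 0 of 2 testable regions were called.

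The target lists, chosen with earlier results of these data known, went different ways. At 19 genes known to need TGF-beta in mouse microglia, 12 of 153 regions rose (7.84%) and 33 fell (21.6%), against 10.8% and 9.77% of all regions. At least 1 region fell at 16 of these genes and rose at 8. The same shares over all genes were not counted, and P2ry12 and P2ry13 share regions. A region inside Golm1 had a peak in 0 of 12 LPS and 11 of 11 saline libraries, with a fall of 52.2 ± 4.0 points (limma, adjusted p = 9.79e-10). At 12 genes listed as direct targets in many cell types, 19 of 74 regions rose (25.7%) and 2 fell (2.7%). That list also names Smad7, Skil and Ski, whose 32 regions hold 3 that rose and 7 that fell; with them it had 22 of 106 regions that rose (20.8%) and 9 that fell (8.49%). A region 13370 bp from Cdkn1a, a cell cycle inhibitor, had a peak in 12 of 12 LPS and 0 of 11 saline libraries, with a rise of 60.2 ± 4.3 points (limma, adjusted p = 3.27e-10). Many genes of both lists respond to other signals as well. Pmepa1 and Ltbp3 stand both among these targets and among the pathway genes.

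**Figure D5:**
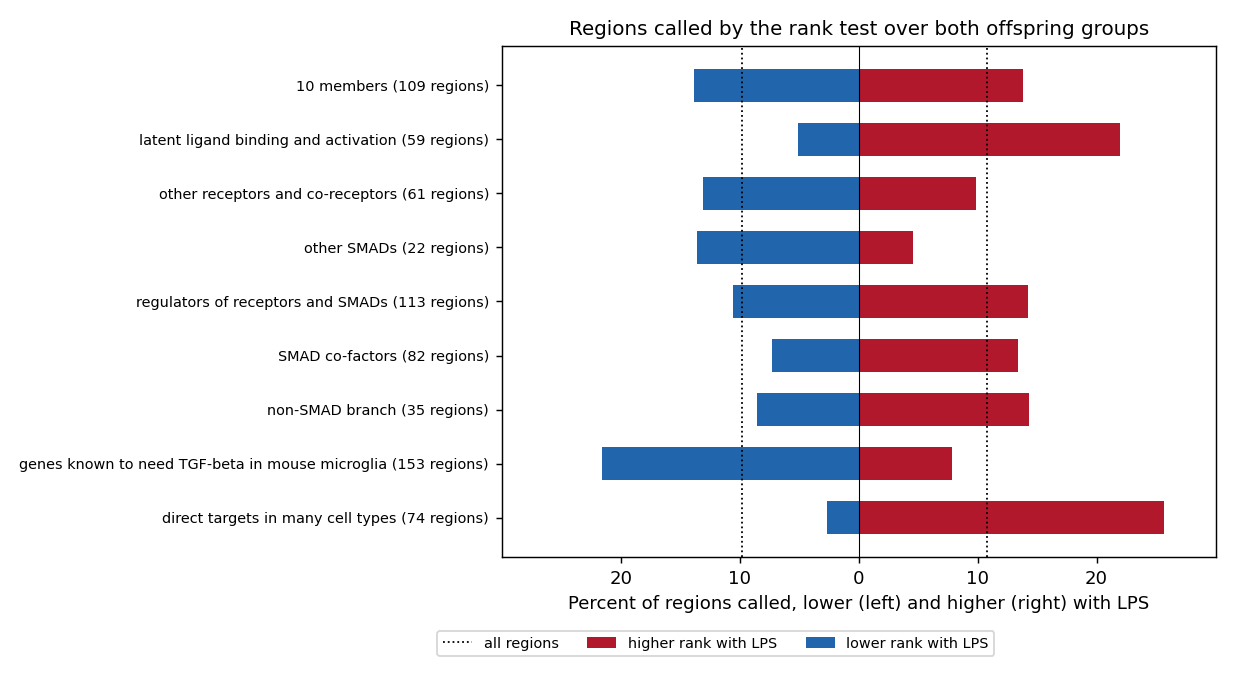
Percent of regions called by limma (x axis) that rose with LPS (red, right) or fell (blue, left) at the 10 members and at each list of pathway or target genes with at least 20 regions; dotted lines give the shares of all regions, 10.8% and 9.77%. The genes known to need TGF-beta in mouse microglia reach farthest left, at 21.6%, and the targets of many cell types farthest right, at 25.7%. Members are left out of every other list, and with Smad7, Skil and Ski the targets stand at 20.8% higher and 8.49% lower. The lists were chosen with earlier results of these data known.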

How the data were processed

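The submitters' processing notes name MACS2, DiffBind, Bowtie2, SAMtools, Picard and cutadapt, with the builds mm10 and GRCm38; no source used here gives their versions. Per peak, the deposited lists of the 23 libraries hold the authors' fold (a ratio) at the summit, −log10 p and −log10 q, used only to rank or filter peaks within a list; the deposited score was not used. Lists were cut to 33949 peaks by −log10 p. Windows of 250 bp to either side of summits, merged by best rank, were kept with a peak in at least 3 libraries (49123 of 74293). A peak was present where the overlap made up 50% or more of the region or of the peak. All alternatives used these regions.

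Presence was tested with Fisher's exact test or an exact conditional test over strata, two-sided, where totals allow a p of 0.01 or less (scipy 1.17.1). Ranks were tested with limma 3.58.1 (R 4.3.3; group means, trended variance). P-values were adjusted by Benjamini-Hochberg over all regions tested. Both tests were checked on simulated data. Up to 3 regions per member and comparison were named by smallest p, and at most 8 other genes; further called regions of members were named after their values were seen. Members, lists and tests were chosen with earlier results of these data known. Pairs of libraries shared at most 0.309% of peaks with identical ends.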

Additional observations from a re-analysis of the deposited data

Results flagged for a closer look

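In 6 of 58 groups of 4 to 10 libraries examined (10.3%), 1 library stood apart from the others by Dixon's criterion, which chance meets in about 1 of 20 groups. At Nrros region 8, CON_LPS replicate 5 was lowest at 61.2 and MIA_LPS replicate 2 was lowest at 66.3. At Tgfbr1 region 1, MIA_SAL replicate 5 was lowest at 45.0. At Tgfbr2 region 12, CON_LPS replicate 6 was highest at 81.0, in the range of the saline libraries. At the Smad3 promoter, region 20, CON_LPS replicate 4 was lowest at 86.9. At Smad7 region 2, CON_SAL replicate 1 was lowest at 71.0. These are percentile ranks in the shortened lists.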

How the results depend on the processing

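Counts are member regions called, and the causes of the changes were not tested. With all deposited peaks, LPS in CON gave 0 by presence and 9 by rank, LPS in MIA 1 by presence, LPS over both 4 by presence, and MIA after LPS 1 by rank, at Skil region 6. With lists of 16974 peaks, presence gave 0 in MIA and 0 in CON, and rank gave 5 in MIA, 5 in CON and 9 over both. With a −log10 q of at least 5, presence gave 0 in MIA, and rank gave 11 in MIA, 7 in CON and 2 for MIA after LPS, at Tgfbr2 region 5 and Skil region 6. Ranked by fold, the rank test gave 11 in MIA, 10 in CON and 18 over both, and the Smad3 promoter reversed, at 1.0. Without the filter on attainable p, presence gave 0 in MIA and 0 in CON. Among regions open in all libraries, where fewer were tested, rank gave 3 in MIA, 4 in CON and 6 over both. With fewer than 20000 sorted cells, presence gave 1 over both, and rank 2 in MIA, 5 in CON, 13 over both and 1 for MIA after LPS, at Smad7 region 5. With 20000 or more, rank gave 10 in CON and 1 for MIA after LPS, at Smad3 region 2. Within gene bodies alone, which hold fewer regions, LPS over both gave 5 by presence, and rank gave 9 in MIA, 7 in CON and 17 over both.

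Leaving out each library in turn gave 3 to 4 by presence and 14 to 19 by rank for LPS in MIA, 3 to 4 and 12 to 18 in CON, and 7 to 10 and 25 to 31 over both. MIA after LPS gave 0 to 1 by rank, with 1 call without CON_LPS replicate 4 and 1 without MIA_LPS replicate 2; the other MIA comparisons and the difference of responses stayed at 0. Of 2583 values of named regions under alternatives, 2135 (82.7%) kept their direction and side of the threshold, 447 lost the call and 1 reversed.

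Over 31 pairs with the same replicate number in other groups, the correlation of deviations ran from -0.18 to 0.185, with a median of 0.0215. Over 166 pairs with other numbers it ran from -0.229 to 0.234, with a median of -0.0052. It was above 0.1 in 8 of the 31 pairs and in 14 of the 166. Of 22 libraries, 7 correlated best with their own number. These values do not settle whether the replicate numbers pair libraries. With the replicate number as a block, LPS over both gave 28 by rank, LPS in MIA 19 and LPS in CON 14. The lists carry no read counts, so depth limits weak peaks in ways that cannot be measured here.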
